A study of Homo sapiens with 8 samples.

Results

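Simple repeat and low-complexity peaks were the mTOR chromatin immunoprecipitation (ChIP) peaks whose centre lay in a tandem repeat of a short unit, or in sequence of skewed base composition, by the repeat class in the deposited annotation. Peaks on chromosomes 1 to 22, X and Y with the class Simple_repeat or Low_complexity and no promoter annotation were taken. There were 1366 such peaks among 125713 in the 4 lists. The shEV EtOH list held 274 of 24948 peaks, shEV R1881 held 346 of 26074, shFoxA1 EtOH held 365 of 35121 and shFoxA1 R1881 held 381 of 39570. Each list came from LNCaP cells, an established androgen-responsive prostate cancer line, kept without androgen for 48 h in 2% serum that had been stripped with charcoal. The shEV cells carried an empty hairpin vector and the shFoxA1 cells a hairpin against FoxA1, a pioneer factor that opens chromatin for the androgen receptor. EtOH cells received 0.1% ethanol vehicle and R1881 cells received 10 nM of this synthetic androgen for 24 h. There was 1 library per group, so no difference has a replicate check and no test was made. Intervals in brackets are 95% Wilson intervals, which cover counting error only. The read depth of each library is unknown, because the lists carry no read totals, and the 4 input DNA libraries were not analysed here.

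Simple repeats are runs of a short unit copied head to tail. The 5-base unit that makes up the human satellite 2 and 3 arrays, which have diverged to different degrees, fills large blocks of heterochromatin beside several centromeres and on the long arm of the Y chromosome. Dinucleotide repeats of CA are scattered through introns and intergenic DNA, and a 6-base unit caps the telomeres. mTOR is a kinase that couples growth to nutrients and growth factors. It acts mainly in the cytoplasm and has also been found on chromatin in the nucleus.

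The repeat units below are shown because they carry most of the peaks or the clearest difference between lists. Each is read from the repeat names in the deposited annotation, written 5′ to 3′ from a common starting base, with the letters shared within a group in capitals.
5-base unit, with 1 base of the next copy: AATGGA
related 10-base unit: AATGGAatcg
second related 10-base unit: AATGGActcg
related 11-base unit: AATGGAactcg
related 13-base unit: AATGGAatcatca
9-base unit: AGCCAGCCa
related 4-base unit, in 2 copies: AGCCAGCC
The 5-base unit, in any phase and on either strand, named 542 of the 1366 peaks. Its 10-base relatives named 7 and 4 peaks, the 11-base relative 3 and the 13-base relative 1. The 9-base unit named 102 peaks and its 4-base relative 9. The 2 groups of related units were formed after the values had been seen. On its other strand the 9-base unit reads through TTGGC, the letters of the half-site of nuclear factor I, at each junction between copies. Of the 118 repeat units found, 3 hold TTGGC on either strand. For scale, 45.6% of 35116 RefSeq promoter windows of 300 bases hold TTGGC, 12.2% hold AATGGA and 3.04% hold AGCCAGCC on either strand, so the 5-letter match is common and the match is only a description.

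Member peaks made up about 1 in every 100 peaks of each list, and lay farther from genes than the rest of their lists. In the empty-vector cells the share was 1.10% (0.976% to 1.24%) with EtOH and 1.33% (1.20% to 1.47%) with R1881. In the knockdown cells it was 1.04% (0.938% to 1.15%) with EtOH and 0.963% (0.871% to 1.06%) with R1881. The interval of shEV R1881 lay above those of both shFoxA1 lists and overlapped that of shEV EtOH. These intervals count neighbouring peaks of an array separately, and the lists differ in length. With members within 10 kb counted once the shares were 0.637%, 0.767%, 0.681% and 0.622%. Among the 10000 highest-scoring peaks they were 1.30%, 1.57%, 1.27% and 1.38%, and no intervals are given at these settings. Simple repeats were 255, 327, 340 and 359 of the members in the same order, and low-complexity sequence the other 19, 19, 25 and 22. Intergenic annotation covered 76.6%, 75.7%, 74.5% and 71.9% of members, against 49.3%, 48.5%, 44.7% and 44.7% of all peaks. Every member was intergenic or intronic, while 3794, 3665, 6614 and 6780 of all peaks had another annotation. Part of the gap in annotation and in distance thus follows from how members were chosen. Members over 100 kb from the nearest transcription start site were 54.0%, 52.3%, 46.8% and 46.2%, against 25.4%, 23.7%, 22.8% and 21.3% of all peaks. In the 5-base group 121 of 134, 128 of 143, 127 of 141 and 126 of 139 members lay that far. Outside the related groups of both units it was 19 of 123, 28 of 162, 36 of 203 and 31 of 210. Those shares lay below the shares of all peaks. Chromosome 21 alone held 17.9%, 18.5%, 17.3% and 14.4% of members, against 1.80%, 1.87%, 1.70% and 1.57% of all peaks. The Y chromosome held 8.76%, 5.49%, 6.85% and 5.25% of members, against 0.357%, 0.284%, 0.265% and 0.207% of all peaks.

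Members were also wider than peaks at large, and many sat close to another member. Their median width was 597.5, 604.5, 573 and 611 bp, where the whole lists had 452, 445, 471 and 470 bp. Another member of the same list lay within 10 kb of 51.1%, 50.9%, 41.9% and 43.8% of them. Over all peaks 31.0%, 32.7%, 37.6% and 40.5% had another peak that near, but there any peak of the far longer list counted, so the shares are not alike. Counted within their own set, non-repeat intergenic peaks had such a neighbour in 20.6%, 19.8%, 21.3% and 23.5% of cases. Satellite peaks had another satellite peak that near in 67.8% to 70.1% of cases. Many member peaks are thus pieces of the same array and are not independent sites. The authors' score, which no source used here defines, was read only within each list. Of the members, 32.8%, 32.4%, 28.2% and 33.3% fell in the top 20% of their own list by score. Outside the related groups of both units 27 of 123, 35 of 162, 34 of 203 and 39 of 210 did, which is near 20%. Among satellite peaks the shares were higher than among members, at 43.9%, 45.0%, 40.5% and 45.0%. Members made up 15, 16, 17 and 22 of the highest 100 peaks, with ties counted, and satellite peaks 50, 48, 42 and 37. Satellite peaks, the annotation class most like the 5-base unit in place, numbered 1020, 904, 1115 and 1035, and 92.2% to 93.8% of them lay over 100 kb from a start site.

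The members fell into 121 repeat families, and 3 of these held 813 peaks (59.5%). The 5-base unit AATGG had 132, 139, 136 and 135 peaks in shEV EtOH, shEV R1881, shFoxA1 EtOH and shFoxA1 R1881, nearly the same number in each list. The CA dinucleotide had 25, 39, 43 and 62, lowest in shEV EtOH and highest in shFoxA1 R1881. These were also the shortest and the longest list, with 24948 and 39570 peaks. Cut to 10000 peaks by score, the lists held 9, 11, 10 and 8 CA peaks, so that order was not kept. The 9-base unit had 15, 38, 19 and 30, with both R1881 lists above both EtOH lists. Purine runs of AG had 8, 11, 15 and 10 peaks, single-base A runs 6, 11, 12 and 10, and the 4-base unit AAAC 1, 6, 4 and 5. The telomere unit AACCCT had 4, 3, 9 and 8, with both shFoxA1 lists above both shEV lists at counts under 10. Low-complexity peaks were GA-rich in 9, 12, 15 and 5 cases, G-rich in 4, 2, 7 and 11 and A-rich in 6, 5, 3 and 6. A further 50 families had a single peak across the 4 lists.

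**Figure D1:**
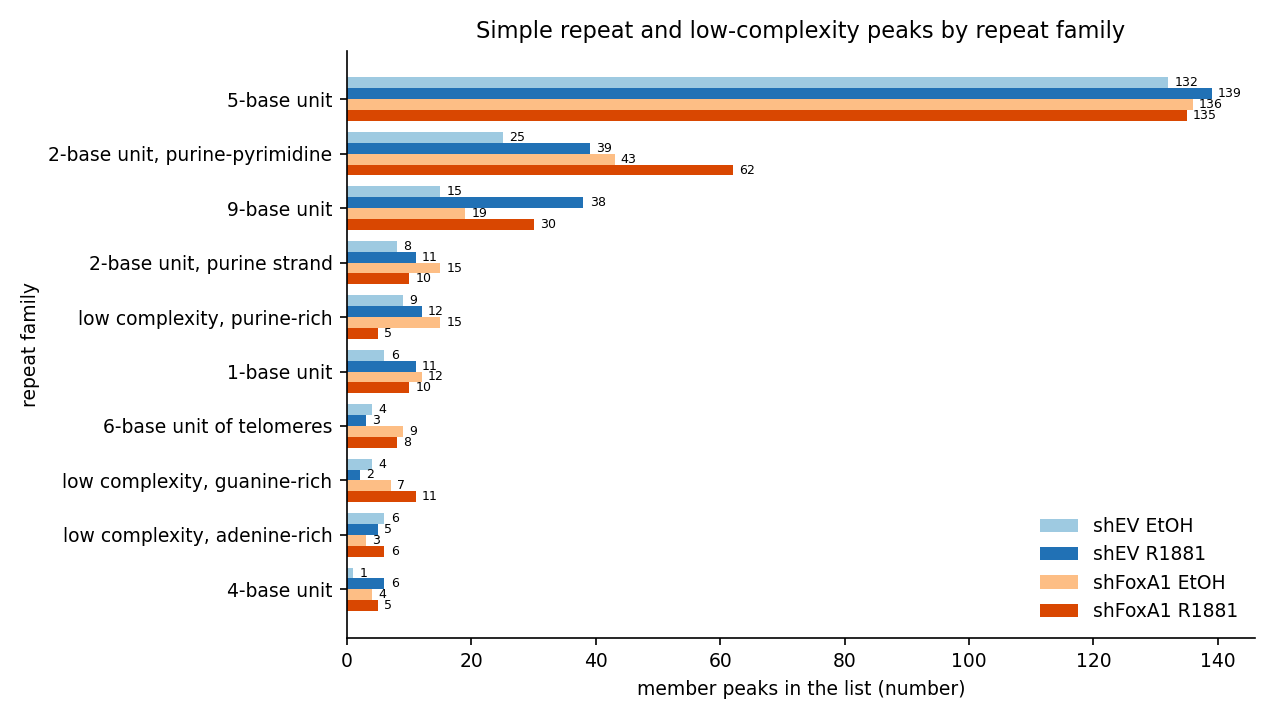
Number of member peaks (horizontal axis) in each of the 10 largest repeat families, with 1 bar per list. The 5-base unit stays between 132 and 139 peaks in every list, while the 9-base unit has 38 and 30 with R1881 and 15 and 19 with EtOH.

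The families differed in base composition and in their place within the lists. Peaks of the 9-base unit had a median G and C content of 66.7%, 66.3%, 66.5% and 65.8%, against 40.7%, 40.9%, 40.7% and 40.7% for the 5-base unit. No peak of the 9-base unit was intronic, and 2, 3, 3 and 3 peaks of the 5-base unit were. CA repeats were intronic in 9 of 25, 16 of 39, 17 of 43 and 30 of 62 peaks. Within their own lists the median CA peak stood at percentiles 38.4, 38.0, 36.6 and 28.4 by score, the median 5-base peak at 65.0, 53.5, 58.1 and 69.1, and the median 9-base peak at 75.5, 84.6, 78.9 and 98.0. The median peak of the CA family was thus low in each list and that of the 9-base unit high.

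Peaks of the 5-base unit and its relatives held the highest scores of the members, and the peaks described here overlapped a peak in every list. Over the whole group, 76 of 170 regions had a peak in all 4 lists. The highest member of every list was a (TCCAT)n peak 161 to 164 kb from CWH43, a gene of glycolipid anchor remodelling, at chr4:49148612-49151545 in shFoxA1 EtOH. Its score was 59188, 59080, 60331 and 58633, the 5th highest of each list. A peak of the related 10-base unit lay 3664 kb from EMBP1, an embigin pseudogene, at chr1:125181334-125184104 in shFoxA1 EtOH. The peaks there scored 48808, 43581, 46777 and 46561 and ranked 7, 6, 8 and 7. In shEV EtOH its centre fell outside the named repeat, so that peak is not a member although it covers the same place. The same holds near ANKRD26P1 at chr16:46386110-46397568, where the 13-base unit was named in shEV R1881 only and the peaks scored 43729, 41867, 42633 and 42960. Membership rests on the base at a peak's centre, so counts of members can differ between lists where the peaks do not. Near EMB, which encodes the cell surface glycoprotein embigin, the peak at chr5:49656406-49661874 scored 20591, 20344, 21882 and 21569, and its neighbour at chr5:49599409-49602986 scored 13141, 13221, 14143 and 12296.

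The 557 peaks of the 5-base group lay at 29 loci, counting peaks within 100 kb as 1 locus. A peak named with the group was present in all 4 lists at 20 of these loci. The loci near EMBP1 and ANKRD26P1 are not among the 20, although peaks overlapped there in every list. The 13 loci with at least 10 peaks held 494 of the 557 (88.7%). The largest, near TPTE at chr21:10655212-10738132, had 27, 38, 37 and 31 peaks covering 26.9, 26.7, 27.3 and 24.2 kb. The peak number there varied more than the covered length. The locus near LOC441666 at chr10:41857183-41916031 had 18, 18, 16 and 20 peaks covering 38.2, 39.7, 40.0 and 40.4 kb. The CWH43 locus at chr4:49112206-49158567 had 15, 14, 13 and 15 peaks. The SPRY3 locus on the Y chromosome, chrY:56676375-56828074, had 9, 10, 9 and 8. In all, the 557 peaks covered 176.7, 197.6, 183.0 and 184.0 kb in the 4 lists. The shEV R1881 value includes the 11.459 kb ANKRD26P1 peak, which is a member in that list only. The 5-base unit without its relatives covered 173.7, 182.5, 172.8 and 176.9 kb.

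**Figure D2:**
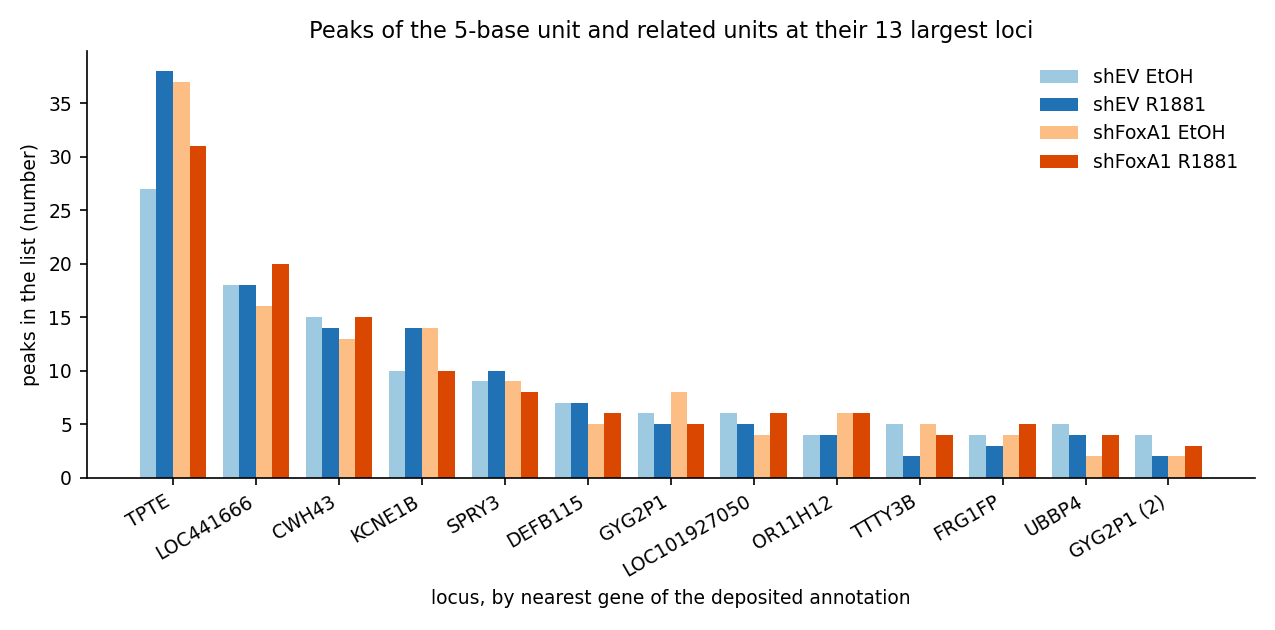
Number of peaks (vertical axis) of the 5-base unit and its relatives at the 13 loci with at least 10 peaks, named by the nearest gene, with 1 bar per list. Every locus has peaks in all 4 lists, from 38 near TPTE in shEV R1881 down to 2 at the smaller loci.

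The 9-base unit showed the clearest difference between EtOH and R1881, and it went the same way with both hairpins. Its 102 peaks lay at 9 loci on chromosomes 1, 2, 15, 16 and 22. All 9 loci had peaks in both R1881 lists, and 6 had peaks in both EtOH lists. The 3 loci without an EtOH peak had no peak of any annotation class there. They lay near LOC101927050 at chr2:90287742-90298754 with 0, 5, 0 and 3 peaks, near LSP1P4, a pseudogene, at chr2:91504440-91528995 with 0, 11, 0 and 7, and near CCT8L2 at chr22:16558129-16568588 with 0, 3, 0 and 2. The highest scores at these loci were 214, 214 and 238 in shEV R1881 and 744, 654 and 806 in shFoxA1 R1881.

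At the 6 other loci of the 9-base unit, peaks were present in every list and mostly longer with R1881. The locus near CYTOR, a long noncoding RNA gene, at chr2:87395610-87431595 had 6, 11, 10 and 9 peaks covering 5.21, 18.2, 8.06 and 23.2 kb. Near FAM72C at chr1:144101138-144106856 there were 3, 2, 3 and 2 peaks covering 3.94, 5.01, 3.62 and 5.29 kb, fewer and longer peaks with R1881. Near FAM30C at chr15:21107342-21112911 the 2 peaks of each list covered 0.889, 3.62, 0.892 and 4.02 kb. Near CHEK2P2, a pseudogene of the checkpoint kinase gene CHEK2, the locus at chr15:20338703-20344438 had 2, 1, 2 and 1 peaks covering 2.13, 5.53, 2.32 and 5.49 kb. The other CHEK2P2 locus, chr15:20100344-20106630, had 1, 2, 1 and 3 peaks covering 0.621, 2.40, 1.35 and 4.48 kb. The exception in length was the single peak near LOC105369266 at chr16:33336071-33340035, which covered 3.79, 3.77, 3.79 and 3.96 kb. By score it ranked 3333, 197, 2536 and 69 in the lists, so it stood higher with R1881 with both hairpins. The best rank was also higher with R1881 at each other locus of this paragraph.

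Over the 9 loci the covered length was 16.6 kb in shEV EtOH and 56.3 kb in shEV R1881, a ratio of 3.39, with a mean peak width of 1106 and 1481 bp. With the FoxA1 hairpin it was 20.04 kb with EtOH and 80.6 kb with R1881, a ratio of 4.02, with a mean width of 1055 and 2687 bp. The length was greater with R1881 at 8 of 9 loci in shEV and at 9 of 9 in shFoxA1. The covered length of the 5-base unit without its relatives lay between 172.8 and 182.5 kb over the same lists. All 9 loci share 1 repeat unit, so a read from one copy can match another, and no source used here says how the authors placed such reads. The part of read placement in these counts was not tested.

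**Figure D3:**
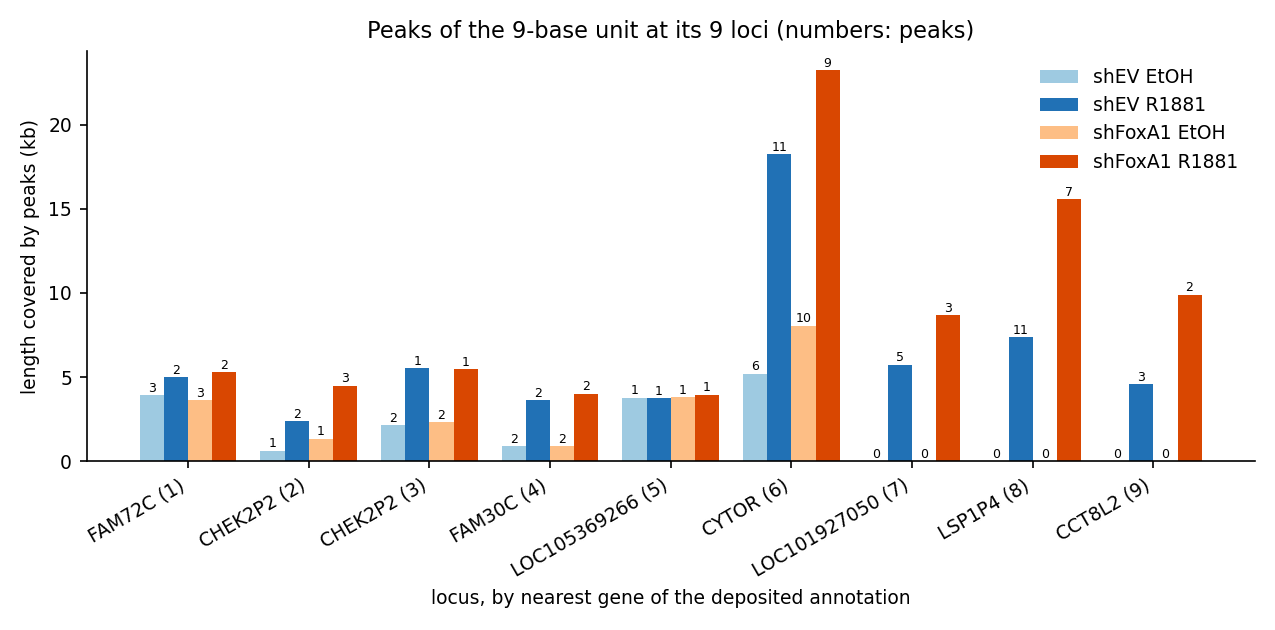
Length covered by peaks of the 9-base unit in kb (vertical axis) at each of its 9 loci, named by the nearest gene and numbered, with the number of peaks above each bar. The 3 loci at the right have peaks only in the 2 R1881 lists, and the locus near LOC105369266 has a similar covered length in all 4.

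To follow the androgen response, a peak was called gained where no peak of the EtOH list overlapped it by 1 bp or more, and lost where an EtOH peak had no overlap in the R1881 list. Both words describe thresholded lists, not measured occupancy. In shEV, 149 of 346 members (43.1%, 38.0% to 48.3%) were gained with R1881, where 45.0% of all peaks of that list were. Of the EtOH members 83 of 274 (30.3%, 25.2% to 36.0%) were lost, where 42.6% of all peaks were. Gained members were therefore near the background and lost members below it. Among gained and lost members together 64.2% (57.9% to 70.1%) were gained, against 52.5% over all peaks. Without the 9-base unit, a choice made after its values were seen, that share was 59.9%.

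The families behaved differently in this pair. Of the 9-base peaks 25 of 38 (65.8%, 49.9% to 78.8%) were gained and 0 of 15 (up to 20.4%) were lost. The LSP1P4 locus gave 11 of these gains, which leaves 14 of 27 without it, the LOC101927050 and CYTOR loci 5 each, CCT8L2 3 and CHEK2P2 1. Of the 5-base peaks 36 of 139 (25.9%, 19.3% to 33.8%) were gained and 31 of 132 (23.5%, 17.1% to 31.4%) lost, both below the shares of all peaks. CA peaks were gained in 21 of 39 cases (53.8%, 38.6% to 68.4%) and lost in 9 of 25 (36.0%, 20.2% to 55.5%), with intervals that include the shares of all peaks. Members outside the related groups of both units were gained in 86 of 162 cases (53.1%, 45.4% to 60.6%), above the 45.0% of all peaks. They were lost in 52 of 123 (42.3%, 33.9% to 51.1%), near the 42.6% of all peaks.

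With the FoxA1 hairpin, 150 of 381 members (39.4%, 34.6% to 44.4%) were gained with R1881, where 44.5% of all peaks were, and 31.8% (27.2% to 36.7%) of the 365 EtOH members were lost, where 37.5% of all peaks were. The gained share of called members was 56.4% (50.4% to 62.2%), against 57.2% over all peaks. The 9-base unit again went one way, with 18 of 30 peaks gained (60.0%, 42.3% to 75.4%) and 0 of 19 (up to 16.8%) lost. LSP1P4 gave 7 of these gains, which leaves 11 of 23 without it, CYTOR 4, LOC101927050 3, CCT8L2 2 and CHEK2P2 2. The 5-base unit had 25 of 135 gained (18.5%, 12.9% to 25.9%) and 26 of 136 lost (19.1%, 13.4% to 26.5%). CA peaks had 35 of 62 gained (56.5%, 44.1% to 68.1%) and 20 of 43 lost (46.5%, 32.5% to 61.1%). The shEV and shFoxA1 pairs share no library.

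The effect of the FoxA1 hairpin was read from the same 4 lists, so these pairs share libraries with those above. With EtOH, 148 of 365 shFoxA1 members (40.5%, 35.6% to 45.7%) had no overlap in shEV, where 49.2% of all peaks had none. Of shEV members 62 of 274 (22.6%, 18.1% to 27.9%) had none in shFoxA1, where 28.0% of all peaks had none. With R1881 the counts were 146 of 381 (38.3%, 33.6% to 43.3%) beside 52.8% of all peaks, and 77 of 346 (22.3%, 18.2% to 26.9%) beside 27.9%. All 4 shares of members were below those of all peaks. Members outside the related groups of the 5-base and 9-base units were near the shares of all peaks: 54.2% and 51.9% were gained with EtOH and R1881, and 26.8% and 29.6% lost. Satellite peaks were lower still, with 29.4% and 30.4% gained and 21.6% and 19.2% lost. Among called members 70.5% were gained with EtOH and 65.5% with R1881, beside 71.2% and 74.2% over all peaks. The shFoxA1 lists were also the longer ones. When each list was limited to its 10000 highest-scoring peaks, the gained shares of called members were 50% (19 of 38) and 41.0% (25 of 61), which turns the direction with R1881. The 71.2% and 74.2% over all peaks come from lists of unequal length, and no share over all peaks is given at equal length. This turn can therefore not be read as particular to the members. The 9-base unit had few calls between hairpins, with 5 of 19 gained and 1 of 15 lost with EtOH, and 4 of 30 gained and 0 of 38 lost with R1881. CA peaks were near the shares of all peaks, with 25 of 43 gained (58.1%, 43.3% to 71.6%) and 6 of 25 lost (24.0%, 11.5% to 43.4%) with EtOH. With R1881 36 of 62 were gained (58.1%, 45.7% to 69.5%) and 10 of 39 lost (25.6%, 14.6% to 41.1%).

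**Figure D4:**
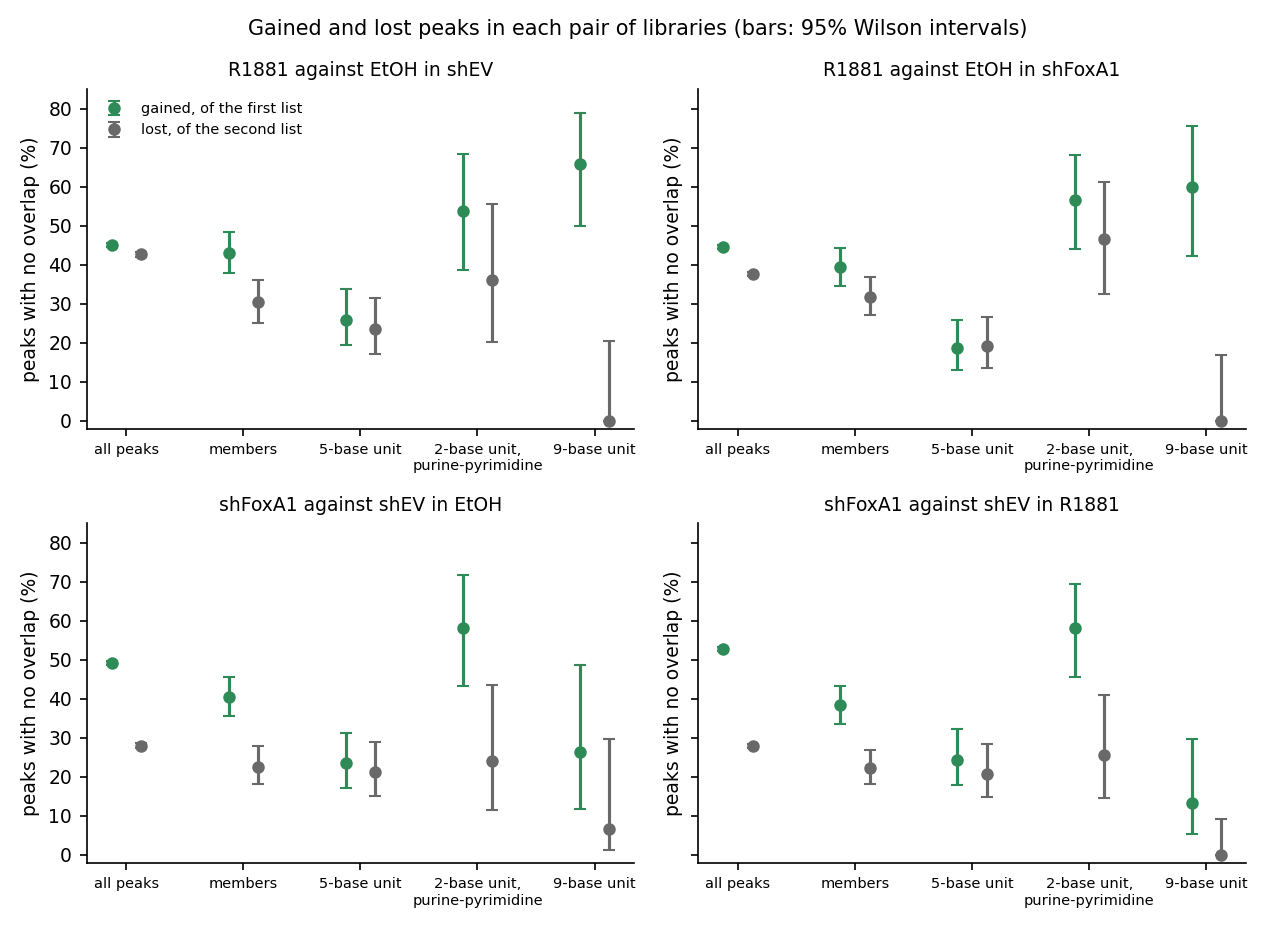
Share of peaks with no overlap in the other list of a pair (vertical axis, %), for all peaks, all members and the 3 largest families, in the 4 pairs of libraries. Bars are 95% Wilson intervals for counting error. The 9-base unit is gained in 65.8% and 60.0% of cases with R1881 and lost in none, while gained and lost shares of the 5-base unit lie close together in each pair.

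Single members with high scores and no overlap in other lists were few. A (ATGGA)n peak near UBBP4, a ubiquitin pseudogene, at chr17:21972967-21973280 scored 3242 in shEV R1881, rank 67 of that list, and no peak overlapped it in the other 3 lists. It belongs to a locus of the 5-base unit with 5, 4, 2 and 4 peaks. A (ATTCC)n peak 195 kb from LOC101927050, chr2:89833225-89833556, scored 729 in shFoxA1 R1881 alone. In the other direction, a (TGGAA)n peak 5.21 kb from MAMDC2, chr9:70038185-70038557, scored 669, 667 and 674 in shEV EtOH, shEV R1881 and shFoxA1 EtOH and had no overlapping peak in shFoxA1 R1881. These 3 peaks carry the 5-base unit and show no common order of treatment or hairpin.

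Other repeats gave peaks in the R1881 lists, named here by their nearest gene, often at a distance. With RGS2, a regulator of G protein signalling, 35.5 kb away, the (TGT)n peak at chr1:192844242-192844822 scored 448 in shEV R1881, and the peak of shFoxA1 R1881 there scored 452 with its centre in an Alu element. Neither EtOH list had a peak at that place. A (TG)n peak in intron 2 of LOC101929526, chr20:18686376-18686986, scored 352 in shEV R1881. The overlapping peak of shFoxA1 R1881 scored 186 and carried no repeat name, and neither EtOH list had a peak there. With NTRK2, a neurotrophin receptor gene, 441 kb away, the (GCT)n peak at chr9:85146783-85147489 scored 300 in shEV R1881. The overlapping shFoxA1 R1881 peak scored 281 without a repeat name, and the place had no EtOH peak. In SLC1A2, a glutamate transporter gene, the intron 6 (TC)n peak at chr11:35304476-35304943 scored 250 in shEV R1881 and had no overlap in shEV EtOH. The shFoxA1 EtOH and shFoxA1 R1881 peaks overlapping it scored 155 and 175 and carried no repeat name. Of the EtOH side, the (AATGGAATGG)n peak 870 kb from GYG2P1 at chrY:11551664-11552062 scored 251 in shEV EtOH and 188 in shFoxA1 EtOH and had no R1881 counterpart. A (TC)n peak in intron 5 of ZNF536, a zinc finger repressor gene, at chr19:30663901-30664510 scored 103 in shFoxA1 EtOH. The overlapping shEV EtOH peak scored 20 and carried no repeat name.

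Merging overlapping peaks gave 61118 regions, of which 722 held a member. A region counted as a member region if any of its peaks was a member, whichever list it came from. Regions with peaks in several lists thus had more chances to count than regions in a single list. This can raise the member share in several lists and lower it in a single list, so the paired shares below are not alike. A peak in all 4 lists was found at 216 member regions (29.9%, 26.7% to 33.4%), beside 19.0% of all regions. Both R1881 lists and neither EtOH list had a peak at 53 (7.34%, 5.66% to 9.48%), beside 5.27% of all regions. The reverse held at 31 (4.29%, 3.04% to 6.03%), beside 3.21%. Both shFoxA1 lists alone had a peak at 45 (6.23%), beside 6.91%, and both shEV lists alone at 9 (1.25%), beside 0.967%. The 9-base unit had 31 regions, of which 12 were in all 4 lists, 14 in both R1881 lists only, 4 in shFoxA1 R1881 only and 1 in all but shFoxA1 EtOH. No region of that unit was in EtOH lists only. The 5-base unit had 163 regions, with 70 in all 4 lists, 4 in both R1881 lists only and 7 in both EtOH lists only. CA repeats had 119 regions, with 25 in all 4 lists, 8 in both R1881 lists only, 6 in both EtOH lists only, 11 in both shFoxA1 lists only and 27 in shFoxA1 R1881 only.

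**Figure D5:**
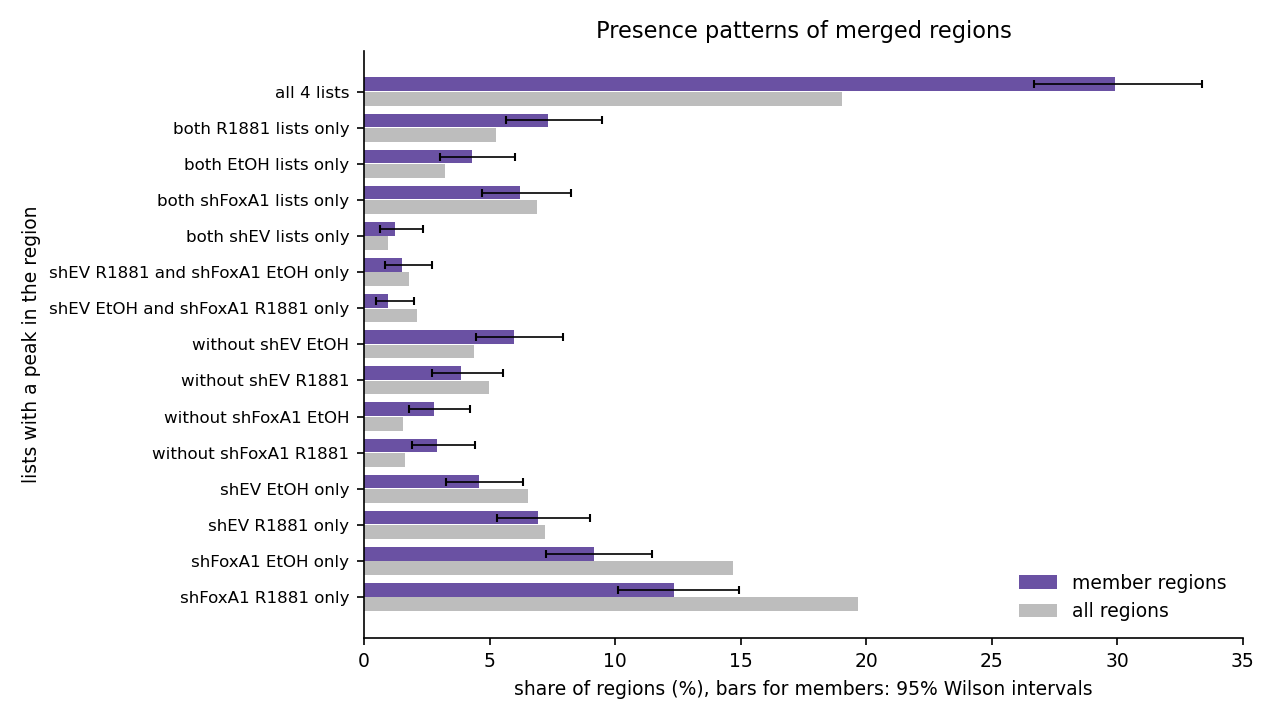
Share of merged regions (horizontal axis, %) with each combination of lists, for the 722 member regions with 95% Wilson intervals and for all 61118 regions. Member regions are in all 4 lists in 29.9% of cases beside 19.0%, and in shFoxA1 R1881 alone in 12.3% beside 19.7%. Regions in several lists had more chances to hold a member, so the paired shares are not alike.

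The telomere unit was found near chromosome ends. The (TAACCC)n peak at DDX11L1, a pseudogene at the end of the short arm of chromosome 1, was in all 4 lists and scored 158, 76, 211 and 269. It lay at chr1:10043-10443 in shFoxA1 EtOH. The subtelomeric (AGGGTT)n peak 51.1 kb from DUX4, a transcription factor gene silenced in most adult tissues, at chr4:190122201-190123101 scored 169, 95, 200 and 175 in the 4 lists. The telomere peaks of both shFoxA1 lists alone lay near RPL23AP82, LINC01986 and DDX11L16, with scores from 20 to 113. Near RPL23AP82 the shFoxA1 R1881 peak carried the name TAR1 instead. Of 11 telomere regions 5 were in all 4 lists, 3 in both shFoxA1 lists only, and none in both shEV lists only. Over all regions these patterns held 19.0%, 6.91% and 0.967%, and the shFoxA1 lists were the longer ones.

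The highest AG peak lay in the ribosomal DNA, the arrays that encode ribosomal RNA, at chr21:8233888-8234930 in shEV EtOH. It scored 7515, 6263, 7124 and 7822 in the 4 lists and ranked 38 to 43. The highest CA peaks lay near USP17L20, VIPR2 and ZNF875. At ZNF875, chr19:37292996-37294688, the peaks scored 421, 300, 570 and 580. The highest A-run peak, near STK17B, a serine/threonine kinase gene, at chr2:196129484-196132673, scored 1577 in shFoxA1 R1881, and the peaks overlapping it in the other lists were centred in an LTR25 element with scores of 730, 1032 and 1222.

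Overlap of member peaks with promoters was counted without a share over all peaks beside it. By the rule a peak annotated to a promoter was not a member. No annotated promoter peak carried a simple repeat or low-complexity name, so leaving promoter peaks out removed none. Such names stood only on intergenic and intronic peaks, so a low count was partly set in advance by the annotation. It does not show that promoter peaks avoid these repeats. Of the RefSeq promoter windows, which run from 250 bases before to 50 after a gene's start (GRCh38.p14), 16 overlapped 16 member peaks, with 1, 2, 8 and 5 peaks in the 4 lists. The window of ANKRD24, an ankyrin repeat protein gene, at chr19:4197840-4198139 on the plus strand lay inside an (AATG)n peak of shFoxA1 EtOH, chr19:4197609-4198194, with a score of 49. It is shown because its repeat can be read base by base, with the bases that lie in 2 or more consecutive copies of the unit in capitals.
ANKRD24 promoter window: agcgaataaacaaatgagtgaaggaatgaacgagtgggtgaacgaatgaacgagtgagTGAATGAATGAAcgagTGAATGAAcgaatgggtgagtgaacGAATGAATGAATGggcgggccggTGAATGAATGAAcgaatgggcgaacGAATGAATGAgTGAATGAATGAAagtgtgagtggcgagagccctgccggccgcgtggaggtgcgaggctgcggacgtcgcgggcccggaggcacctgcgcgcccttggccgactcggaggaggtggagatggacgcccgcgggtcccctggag
The capitals mark 67 of 300 bases. AATGAATG, which is 2 copies of the unit, occurs on either strand in 1.61% of the 35116 promoter windows.

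No member peak lay within 50 kb of a start site of a gene from 4 lists of genes, counting peaks whose nearest gene is on a list. Androgen-induced genes (35 genes) had 32, 64, 53 and 97 peaks of any class in the 4 libraries, and 0 were members (up to 10.7%, 5.66%, 6.76% and 3.81%). Androgen-repressed genes (10) had 19, 16, 27 and 27 peaks, luminal prostate transcription factors (20) had 23, 37, 37 and 69, and mTOR pathway genes (40) had 27, 24, 47 and 47, again with 0 members. The share of members in the whole lists lies below each of those upper limits, so a lower share near these genes was not detectable at these numbers.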

How the data were processed

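mTOR ChIP-seq peak lists of 4 LNCaP libraries were used, 1 per group. Per the submitters' processing notes, the genome build was hg38 and the tools included MACS2, BWA 0.7.12 and HOMER 4.11.1, with no role or order stated. Per the file headers, each list is HOMER annotation output. The deposited score of each peak is the authors' value. The G and C fraction that the authors deposited for each peak was printed as a percentage. No source used here gives the peak caller's control, its threshold or the handling of reads that match several places, and a deeper library can give a longer list.

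Python 3.11.15 with pandas 2.3.3 computed all counts, and scipy 1.17.1 the Wilson intervals. Each repeat unit was reduced to its shortest repeating form and then to the alphabetically first of its rotations on both strands. The scripts were tested on simulated lists. Named regions were the 5 highest-scoring members per list, per direction of each pair and per presence pattern, the 5 regions in all 4 lists with the best worst rank, and the highest member per family of at least 20 peaks and list. UBBP4, LOC101927050 and MAMDC2 were singled out among these after their values were seen. The members, gene lists and tests were chosen with earlier results of these data known.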

Additional observations from a re-analysis of the deposited data

Results flagged for a closer look

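In 6 of the 10 largest families the number of peaks moved in opposite directions with R1881 in the 2 hairpins, and these differences were not tested. The 5-base unit AATGG had 7 more peaks with R1881 than with EtOH in shEV and a difference of -1 in shFoxA1. AG runs differed by 3 and -5, GA-rich sequence by 3 and -10, and A runs by 5 and -2. G-rich sequence differed by -2 and 4 and A-rich sequence by -1 and 3. All but the AATGG family rest on at most 15 peaks in any list.

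Simple repeat and low-complexity peaks also occurred on sequences outside chromosomes 1 to 22, X and Y, which no comparison used. They numbered 65 with EtOH and 63 with R1881 in shEV, and 65 with EtOH and 54 with R1881 in shFoxA1. The 5-base unit or a relative named 50, 43, 48 and 40 of them.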

How the results depend on the processing

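Of 122 values recomputed under 8 alternatives, 78 stayed within the counting interval of the reported value, 43 left it and 1 turned its direction. With the 10000 highest-scoring peaks, the share of members became 1.30%, 1.57%, 1.27% and 1.38% in the 4 lists, in the order of the report. Counting members within 10 kb once, it was 0.637%, 0.767%, 0.681% and 0.622%, and without the AATGG family 0.569%, 0.794%, 0.652% and 0.622%. With the 10000 highest peaks the gained share of called members was 70.4% for R1881 in shEV, 50% for the hairpin with EtOH and 41.0% with R1881, the one reversal. No share over all peaks is given at that setting, so these values have no background beside them. A score of at least 50 gave 57.9% for the hairpin with R1881, and leaving out AATGG gave 77.3% for the hairpin with EtOH. The 9-base peaks had gains and no losses under each alternative run on them, but counting peaks within 10 kb once cut the gains from 25 and 18 to 3 in each hairpin. Regions in all 4 lists were 48.7% with the 10000 highest peaks, 36.1% at a score of at least 50, 26.1% without AATGG and 12.9% with peaks shortened to 200 bp. Regions in both EtOH lists only were 2.55% at a score of at least 50. For these patterns too, no share over all regions is given at the alternative settings, so the values have no background beside them. The AATGG share of members fell most when members within 10 kb counted once, to 18.9%, 15%, 11.7% and 12.2%, and was 56.9%, 50.4% and 42.8% in shEV EtOH, shFoxA1 EtOH and shFoxA1 R1881 with the 10000 highest peaks. The CA share became 15.7%, 19.0%, 17.6% and 24.0% when members within 10 kb counted once. It was 7.01%, 7.87% and 5.80% in shEV R1881, shFoxA1 EtOH and shFoxA1 R1881 with the 10000 highest peaks, and 8.53% and 10.7% in the shFoxA1 lists at a score of at least 50. The 9-base share became 16.6% and 19.6% in the R1881 lists with the 10000 highest peaks and 12.4% in shFoxA1 R1881 at a score of at least 50. Counted once within 10 kb it was 4% in shEV R1881, then 2.93% and 3.25% in the EtOH and R1881 lists of shFoxA1. Apart from changes that follow from the alternatives' own construction, such as fewer peaks, the cause was not tested.

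Leaving out the 9-base family, added after seeing the data, kept all 4 gained shares within their intervals. Keeping promoter peaks was not run, because 0 of them carry a simple repeat or low-complexity name. The overlap of 50% applies to pairs only. No paired analysis was possible because the labels give 1 library per group and no replicate numbers. With 1 library per group and unknown depth, a difference between lists cannot be told apart from a difference between libraries.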
